A study of Mus musculus with 77 samples.

Results

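Adult mouse pancreatic ductal organoids that expressed wild-type Neurogenin3 (WT Ngn3) for 2 days were compared with organoids that expressed GFP only for the same time. The libraries were chosen by their labels, 18 of WT Ngn3 and 18 of GFP only, which are 36 of the 77 libraries of the series. Each group holds 3 biological replicates with 6 technical repeats each, every library was made from 50 sorted cells with Smart-seq2, and the repeats were summed so that each replicate counted once (n = 3 per group). The question is which genes of duct-derived epithelial cells differ after 2 days of Ngn3.

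All organoids came from C57BL/6 mice, were at passage 2 and grew in a medium with EGF, R-spondin, Noggin, FGF10 and nicotinamide, so the growth factors are shared by both groups. Both groups carried a lentiviral pair of vectors in which a doxycycline-dependent transactivator drives a TRE3G promoter. In the WT Ngn3 group this promoter drives GFP joined through a 2A peptide to HA-tagged Ngn3, and in the control group it drives GFP alone. Only GFP-positive cells were sorted, which limits the comparison to cells that took up and expressed the vectors. The sources used here do not say whether biological replicates are separate animals, organoid lines or inductions. The p-values of genes set the difference between groups against the spread of such replicates, including those of the phosphomutant 6S-A Ngn3 group of the same day. Because each library pools 50 cells, a lower level can mean fewer cells with a transcript or less of it per cell, and these cannot be told apart.

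Ngn3 is a basic helix-loop-helix transcription factor that pairs with E proteins and binds the E-box CANNTG. In the embryonic pancreas it is switched on briefly in progenitors of the duct-like epithelium and is required for all islet endocrine cells, whose progenitors leave the cell cycle, leave the epithelium and start a cascade of further transcription factors. Many genes of that cascade are also used by neurons, which need related proneural factors.

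Gene counts summed to 1822044 to 5632412 per library in GFP only (median 4363666) and to 1501002 to 5283008 in WT Ngn3 (median 3460207). Levels are in CPM, the gene reads of a replicate scaled to a TMM-adjusted total of 1000000, and are given for replicates 1, 2 and 3 in that order, with GFP only before WT Ngn3 where one set stands against another. Spike-in reads made up 0.125% ± 0.037 (SD, n = 3) of WT Ngn3 and 0.108% ± 0.036 of GFP only reads (exact two-sided permutation test, p = 0.7), and mitochondrial genes 3.12% ± 0.14 and 3.24% ± 0.12 of gene reads (p = 0.3). At 1501002 reads per library, 16327 ± 73 genes were detected in WT Ngn3 and 15969 ± 151 in GFP only (p = 0.1, the smallest p that 3 against 3 allows). Technical repeats 2 and 3 of replicates 2 and 3 lay closer together than other repeats in both groups (chi-square per gene 1.61 to 2.44 in 4 pairs, against 5.41 to 35.7 in the other 86), and summing counts each pair within its own replicate. The widest pairs were in replicate 3, where repeats 5 and 6 lay 29.2 to 35.7 from repeats 1 to 4 in GFP only and 18.7 to 30.55 in WT Ngn3. Spike-in reads of replicate 3 were 0.203 to 0.236% in repeats 1 to 4 of GFP only and 0.0753 and 0.0736% in repeats 5 and 6. In WT Ngn3 they were 0.168 to 0.277% and 0.101 and 0.0919%. The cause of this split was not tested.

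The targeted gene was read first. Neurog3 (chr10:62133090-62134763 on GRCm38, plus strand) was at 0.077, 0.0406 and 0.05 CPM in GFP only and at 220.0, 95.5 and 112 CPM in WT Ngn3, and no WT Ngn3 replicate came near a control replicate (log2 fold change 11.16 ± 0.65 SE, adjusted p = 4.4e-06, by the quasi-likelihood test of edgeR with p-values adjusted after Benjamini and Hochberg, as for all adjusted p here). The whole GFP only group held 4 Neurog3 reads. The count table does not separate reads of the lentiviral Ngn3 from those of the cell's own gene. Fam241b overlaps Neurog3 on the other strand, and the libraries do not mark strand, so reads of the overlap cannot be told apart by strand. The strand setting of the counting is not given in the sources used here.

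Of 23844 genes tested, 1563 were higher in WT Ngn3 (6.56% of those tested) and 1247 were lower (5.23%), and the replicates of both groups did not overlap for 26.2% of all genes tested. The genes that rose and those that fell differed in size of change. The median log2 fold change was 1.72 among the higher and -0.97 among the lower genes. With genes that had no reads in one group set at the bound given by 3 reads over that group, 195 higher genes had a log2 fold change of at least 5 and 9 lower genes one of at most -5. Of the higher genes, 555 (35.5%) were under 1 CPM in GFP only and 124 had no read there, while 78 of the lower genes (6.26%) were under 1 CPM in WT Ngn3. Among the higher genes were 36 lincRNAs and among the lower ones 7, of 805 lincRNAs tested. Scaling on spike-in totals instead of TMM moved the median log2 fold change of all genes from 0.01 to -0.17 and left 763 higher and 456 lower genes.

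**Figure D1:**
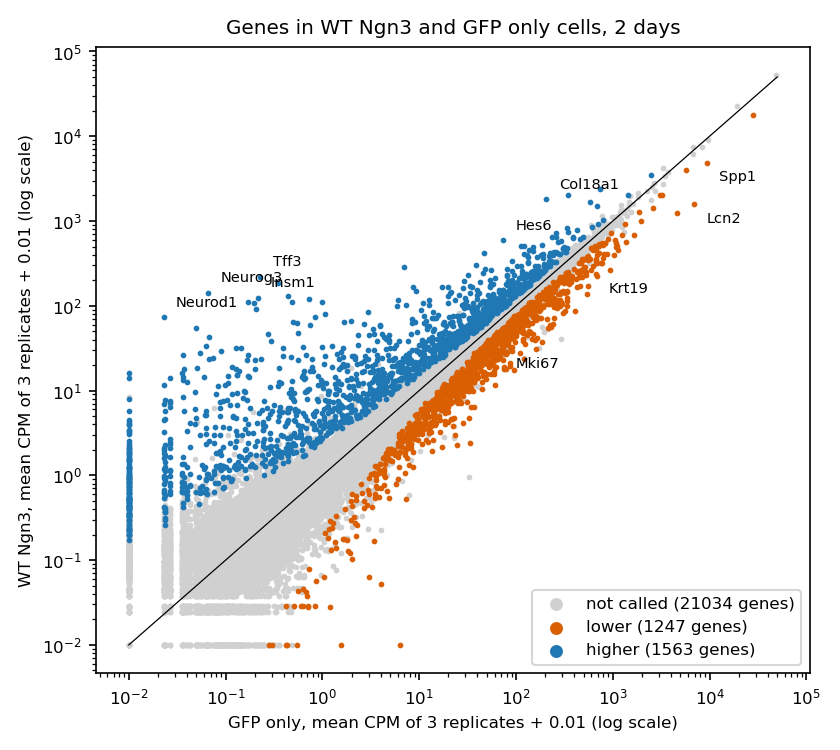
Mean level of each tested gene in GFP only (x axis) and WT Ngn3 (y axis), in CPM plus 0.01 on log scales, with 3 replicates per group. Blue points are the 1563 genes called higher, orange points the 1247 called lower, and the line marks equal levels. The blue points reach far from the line at low control levels, whereas the orange points stay closer to it.

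Transcription factors of the islet lineage rose together. Of 30 tested members of this list, 22 were higher and 1, Glis3, was lower, and their median log2 fold change was 5.75 (5.40 with near-silent members at their bound or counted ratio), against 0.01 over all genes tested. This list and those below were chosen with earlier results of these data known, so their shares and medians are descriptions, not tests. Neurod1 encodes the bHLH factor that follows Ngn3 in endocrine precursors. It was at 0.0385, 0 and 0 CPM in GFP only, where 1 library held its single read, and at 48.6, 23.7 and 147 CPM in WT Ngn3, a ratio of summed levels of 5075-fold with a 95% counting interval of 910.4 to 200490, an interval that like all such intervals here covers counting error only (adjusted p = 0.00117). All 18 WT Ngn3 libraries held Neurod1 reads, and the gene overlaps Cerkl on its own strand and Gm26755 on the other. Insm1, a zinc-finger factor of endocrine differentiation, was at 0.154, 0.365 and 0.1 CPM in GFP only and 68, 90.2 and 216 CPM in WT Ngn3 (log2 fold change 9.16 ± 0.76 SE, adjusted p = 0.000143). Rfx6, required upstream of several islet factors, was at 0.0385, 0.0812 and 0 against 44.7, 16.2 and 104 CPM, with 3 reads in the whole control group (1291-fold with a 95% counting interval of 441 to 6262, adjusted p = 0.000903). In each of these genes, replicate 3 was the highest of the WT Ngn3 replicates. Atoh8, a bHLH factor of the atonal family, did not share that order, with 14.2, 12.2 and 8.94 CPM in WT Ngn3 and 1 read in GFP only (845-fold with a 95% counting interval of 151 to 33415, adjusted p = 1.05e-07). The islet factors had a median log2 fold change of 3.37 with limma, 6.38 with filterByExpr and 4.81 without WT Ngn3 replicate 3. Leaving out a replicate moved the fold change by over 1.5 times, to log2 values of 9.82 for Insm1 without GFP only replicate 2, and 8.50 for Insm1 without WT Ngn3 replicate 3. By counted reads, the fold of Neurod1 became at least 1069 without GFP only replicate 1, 3304 without GFP only replicate 2 and 2671 without WT Ngn3 replicate 3, that of Rfx6 became 2521 without GFP only replicate 2 and 762 without WT Ngn3 replicate 3, and that of Atoh8 became at least 178 without GFP only replicate 1 and 550.0 without GFP only replicate 2.

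The start regions of 4 of the named transcription factor genes are shown to set the E-box that Ngn3-type factors bind beside the genes that rose. They are RefSeq sequences of GRCm38.p6 from 250 bases before to 50 bases after an annotated start, 5′ to 3′ on the gene's strand, with each CANNTG in capitals. Neurod1 is at chr2:79456587-79456886 (minus strand), Rfx6 at chr10:51685268-51685567 (plus strand), Atoh8 at chr6:72235528-72235827 (minus strand) and Hes6, a Notch-pathway gene described below, at chr1:91413989-91414288 (minus strand).
Neurod1: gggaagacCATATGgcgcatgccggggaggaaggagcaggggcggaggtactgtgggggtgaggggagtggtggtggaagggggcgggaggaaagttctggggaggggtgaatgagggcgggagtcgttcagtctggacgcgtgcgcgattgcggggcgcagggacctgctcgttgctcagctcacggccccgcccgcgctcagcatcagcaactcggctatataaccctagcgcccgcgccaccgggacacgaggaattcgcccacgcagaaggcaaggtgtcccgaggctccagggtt
Rfx6: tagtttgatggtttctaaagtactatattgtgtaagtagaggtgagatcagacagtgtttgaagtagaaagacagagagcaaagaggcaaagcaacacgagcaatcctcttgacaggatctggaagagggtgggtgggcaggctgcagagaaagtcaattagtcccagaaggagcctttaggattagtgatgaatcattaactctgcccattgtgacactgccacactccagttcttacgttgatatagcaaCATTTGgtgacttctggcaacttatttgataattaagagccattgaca
Atoh8: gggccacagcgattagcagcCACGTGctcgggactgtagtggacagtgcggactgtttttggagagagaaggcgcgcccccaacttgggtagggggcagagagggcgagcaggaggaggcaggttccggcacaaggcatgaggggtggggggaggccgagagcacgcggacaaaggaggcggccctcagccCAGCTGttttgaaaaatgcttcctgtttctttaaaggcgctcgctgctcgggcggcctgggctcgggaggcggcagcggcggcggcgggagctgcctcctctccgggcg
Hes6: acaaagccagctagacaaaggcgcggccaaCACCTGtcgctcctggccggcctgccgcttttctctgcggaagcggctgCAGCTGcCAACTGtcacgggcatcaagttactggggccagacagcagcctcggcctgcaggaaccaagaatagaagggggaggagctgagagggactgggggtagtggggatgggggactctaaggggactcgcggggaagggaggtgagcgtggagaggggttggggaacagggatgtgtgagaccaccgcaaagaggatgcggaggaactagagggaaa
The Neurod1 window held 1 E-box, CATATG, at position -242 from the start, and the Rfx6 window 1, CATTTG, at position 2. Atoh8 had CACGTG at -230 and CAGCTG at -59. Hes6 had CACCTG at -220, CAGCTG at -171 and CAACTG at -164, and the window of its second annotated start (chr1:91413173-91413472, minus strand) held 1, CAGCTG at -150. Over 17023 RefSeq windows of tested genes, 66.1% held at least 1 CANNTG and 16.2% held CAGCTG, which reads the same on both strands. Among windows of genes that rose, 68.5% held CANNTG and 22.3% held CAGCTG, among those of genes that fell 68.5% and 17.5%, and among those of genes not called 65.7% and 15.5%. CAGATG or its reverse complement CATCTG was in 14.9% of windows of higher, 12.9% of lower and 12.6% of uncalled genes. The windows match by gene symbol 1107 of the 1563 higher genes, and a match describes letters, not binding.

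Further down the cascade, genes for further factors of islet cells rose from near silence. Pax4, a paired-homeodomain factor of endocrine precursors, was at 0.0385, 0.122 and 0 against 3.18, 0.948 and 11.4 CPM (log2 fold change 6.38 ± 1.25 SE, adjusted p = 0.00842). Its lowest WT Ngn3 replicate, replicate 2, was above every control replicate, but mostly through technical repeat 1, at 5.58 CPM. The other repeats of that replicate were at 0 to 0.408 CPM. Nkx2-2, a homeodomain factor of several islet cell types, was at 0.385, 0.446 and 0.3 CPM in GFP only and 18.3, 14.2 and 63.9 CPM in WT Ngn3 (log2 fold change 6.37 ± 0.80 SE, adjusted p = 0.000943). Isl1, a LIM-homeodomain factor of all islet cells, was at 0.0385, 0.203 and 0 against 38.9, 8.76 and 40.3 CPM (log2 fold change 8.34 ± 0.87 SE, adjusted p = 0.000237). Fev, which marks an endocrine precursor state and serotonin neurons, had 2 control reads and 4.88, 1.62 and 10.9 CPM in WT Ngn3 (204-fold with a 95% counting interval of 56.2 to 1695, adjusted p = 0.00064). Pax6, Neurod2 and Lmx1b also rose. Of factors of beta cells, Pdx1 had a log2 fold change of -0.57 (adjusted p = 0.154) and Nkx6-1 one of -0.68 (adjusted p = 0.552), neither called, and Mafa, with no read in either group, was not tested. Shifts of over 1.5 times in the fold change came from leaving out a replicate, giving log2 values of 7.53 for Pax4 and 10.04 for Isl1 without GFP only replicate 2, and 5.08 for Pax4 and 5.40 for Nkx2-2 without WT Ngn3 replicate 3. Without a replicate, the counted fold of Fev became 129 without GFP only replicate 1, at least 88.8 without GFP only replicate 2 and 122 without WT Ngn3 replicate 3. Significance was lost for Pax4 without GFP only replicate 1 and for Pax6 without any GFP only replicate. Further calls ended with no filter on low counts for Pax4 and Pax6, and with technical repeat 1 alone for Lmx1b.

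Members of the Myt1 and ETO families rose beside them. Myt1, a zinc-finger factor that opposes Notch signalling, was at 0.0385, 0.0406 and 0 CPM in GFP only and 18.1, 15.6 and 44.5 CPM in WT Ngn3 (904-fold with a 95% counting interval of 249.9 to 7475, adjusted p = 9.37e-06), and its relative St18 was at 0, 0.0812 and 0.05 against 25.8, 11 and 45.9 CPM (652-fold with a 95% counting interval of 223 to 3167, adjusted p = 4.12e-05). The third member, Myt1l, had 2 control reads, stayed at 0.127, 0.223 and 0.37 CPM in WT Ngn3 and did not pass (adjusted p = 0.147). The ETO corepressors bind bHLH and other DNA-bound factors. Cbfa2t3 was at 0.693, 1.1 and 1.15 against 72.4, 93.3 and 168 CPM (log2 fold change 6.84 ± 0.45 SE, adjusted p = 8.72e-06), and Runx1t1 at 0.0385, 0.122 and 0 against 29.4, 12.8 and 59.5 CPM (log2 fold change 9.09 ± 0.85 SE, adjusted p = 0.000116). Cbfa2t2, already expressed in the controls, rose less (log2 fold change 1.11 ± 0.14 SE, adjusted p = 0.000105). Other members that started from a measurable level changed by less, with Sox11 at 38.2, 41.9 and 39.1 against 78.6, 119 and 93.2 CPM (log2 fold change 1.29 ± 0.18 SE, adjusted p = 0.000232) and Rfx3, a ciliary and islet factor, at 16.2, 14.7 and 21.1 against 48.4, 36 and 60.5 CPM (log2 fold change 1.48 ± 0.20 SE, adjusted p = 0.000232). Glis3, which is expressed in ducts as well as in beta cells, fell from 94.1, 92.1 and 105 CPM to 42.3, 35.5 and 34.3 CPM (log2 fold change -1.37 ± 0.14 SE, adjusted p = 2.5e-05). With a replicate left out, the fold change shifted by over 1.5 times, to log2 values of 10.25 for Runx1t1 without GFP only replicate 2, and 8.41 for Runx1t1 without WT Ngn3 replicate 3. In counted reads the fold of Myt1 became 601 without WT Ngn3 replicate 3, and that of St18 became 412 without GFP only replicate 1 and 1274 without GFP only replicate 2. The adjusted p exceeded 0.05 on spike-in totals for Cbfa2t2 and Sox11.

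**Figure D2:**
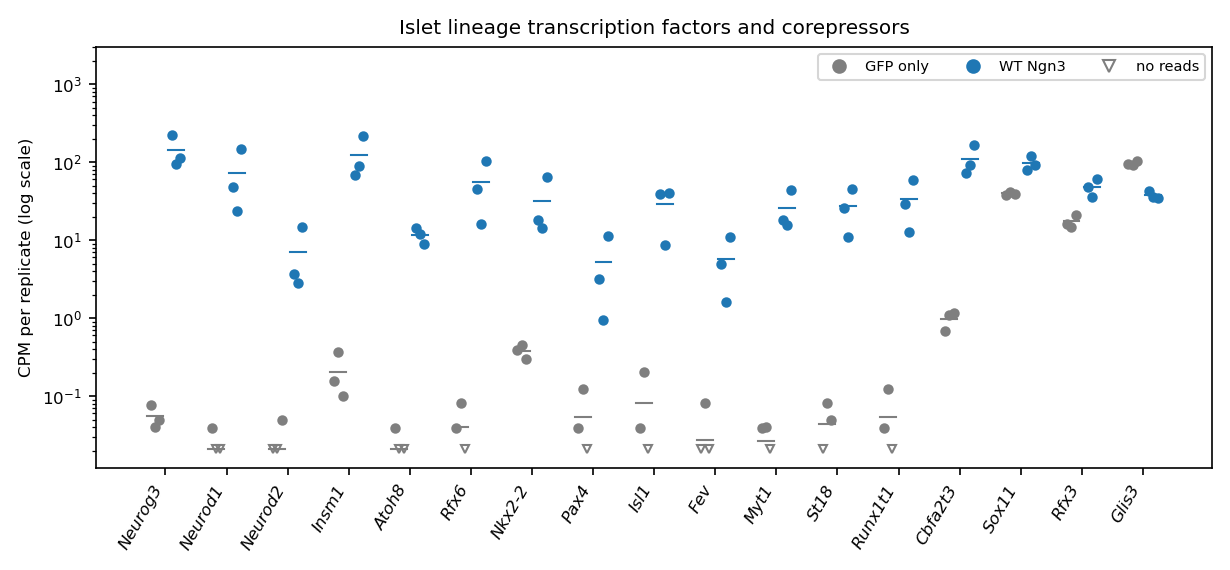
CPM of islet lineage transcription factor and corepressor genes in each of the 3 replicates of GFP only (grey) and WT Ngn3 (blue), on a log scale, with replicates in order from left to right and a bar at the group mean. Open triangles are replicates without reads, drawn below the level of 3 reads over the group, and means under that position are drawn at it. The 17 genes shown were all called, and the groups overlap for none of them, as for 98.3% of all genes called higher and 99% of those called lower. Glis3 is the one that is lower in WT Ngn3.

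Beside these factors, further genes were chosen by fitted fold change among those at 10 CPM or more in WT Ngn3. The fitted fold is no bound where the controls held no read, so no order is read from it. Gng4, a G protein gamma subunit, had no read in GFP only and 16.2, 8.53 and 23.9 CPM in WT Ngn3, at least 384-fold above the floor of 3 reads over the control group (adjusted p = 5.26e-05). Kcnip3, a calcium sensor that binds potassium channels, had no control read either and 15.7, 4.69 and 21.7 CPM in WT Ngn3 (at least 337-fold, adjusted p = 0.00155). Tff3 encodes a secreted trefoil peptide of mucous epithelia. It was at 0.27, 0.284 and 0.1 CPM in GFP only and 245, 149 and 269 CPM in WT Ngn3 (log2 fold change 9.90 ± 0.34 SE, adjusted p = 7.16e-09), and every one of the 18 WT Ngn3 libraries held at least 61.4 CPM while no control library exceeded 0.816 CPM. Gpr37, an orphan G protein-coupled receptor, was at 0.193, 0.244 and 0.05 against 204, 84.8 and 45 CPM, highest in replicate 1 (log2 fold change 9.31 ± 0.88 SE, adjusted p = 0.000384). Nxph1, a neurexin ligand, was at 0.0385, 0.0812 and 0.05 against 31.3, 16 and 80.6 CPM (log2 fold change 9.41 ± 1.01 SE, adjusted p = 0.000545). Kcnma1, a calcium-activated potassium channel, had 1 control read and 12.6, 7.14 and 23 CPM in WT Ngn3 (1004-fold with a 95% counting interval of 179.7 to 39692, adjusted p = 2.87e-06). Miat, a long noncoding RNA of neural tissue, was at 0.231, 0.284 and 0.05 against 51.4, 44.6 and 231 CPM (log2 fold change 9.06 ± 1.05 SE, adjusted p = 0.00136). Small or antisense gene models overlap Gng4, Kcnip3, Kcnma1, Nxph1 and Miat, so single reads could belong to either. The fold change moved by over 1.5 times when a replicate was left out, to log2 values of 8.52 for Gpr37 without WT Ngn3 replicate 1, and 8.57 for Nxph1 and 7.88 for Miat without WT Ngn3 replicate 3. The counted fold of Gng4 became at least 242 without GFP only replicate 1 and at least 249.8 without GFP only replicate 2, that of Kcnip3 became at least 213 without GFP only replicate 1 and at least 219 without GFP only replicate 2, and that of Kcnma1 became 634 without GFP only replicate 1, 653 without GFP only replicate 2 and at least 239.9 without GFP only replicate 3.

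Genes for the storage and processing of peptide hormones rose. Granin and prohormone-processing genes had 13 of 19 tested members higher and none lower (median log2 fold change 4.31). Chga, the granule protein chromogranin A, was at 0.693, 0.487 and 0.1 CPM in GFP only and 102, 43.8 and 242 CPM in WT Ngn3 (log2 fold change 8.15 ± 0.89 SE, adjusted p = 0.000973). The prohormone convertases, which cut hormone precursors, had the same order of replicates in WT Ngn3, Pcsk1 with 0.116, 0.122 and 0.15 against 17.2, 7.03 and 26.8 CPM (log2 fold change 6.99 ± 0.69 SE, adjusted p = 6.07e-05) and Pcsk2 with 2 control reads and 7.5, 5.13 and 35.9 CPM in WT Ngn3 (554-fold with a 95% counting interval of 153 to 4580.2, adjusted p = 0.00221). Cpe, which trims the cut peptides, was already expressed at 119.6, 109 and 113 CPM and rose to 413, 375 and 719 CPM (log2 fold change 2.14 ± 0.23 SE, adjusted p = 8.68e-05). Chgb, chromogranin B, was at 0.385, 0.528 and 0.1 CPM in GFP only and 256, 16.2 and 285 CPM in WT Ngn3, with replicate 2 far below the other 2 (log2 fold change 9.02 ± 2.12 SE, adjusted p = 0.0423). Scg3, Scg5, Ptprn, Ptprn2, Cadps, Ddc, Pcsk1n and Resp18 also rose. Pam, which amidates peptides and is widely expressed, had a log2 fold change of -0.31 (adjusted p = 0.134). Chgb was also not called without technical repeat 3 of replicates 2 and 3. The granin and processing genes had a median log2 fold change of 3.06 with limma, 6.46 with filterByExpr, 6.08 with technical repeat 1 alone and 5.93 without GFP only replicate 1. Leaving out a replicate moved the fold change by over 1.5 times, to log2 values of 7.33 for Chga without WT Ngn3 replicate 3. By counted reads, the fold of Pcsk2 became at least 233 without GFP only replicate 1, 361 without GFP only replicate 2 and 229 without WT Ngn3 replicate 3. Calls did not hold for Chgb without any GFP only replicate or WT Ngn3 replicate 1 or 3 and for Resp18 without any GFP only replicate or WT Ngn3 replicate 1, and on spike-in totals for Chgb. The adjusted p also passed 0.05 without technical repeat 3 of replicates 2 and 3 for Chgb, with technical repeat 1 alone for Pcsk1n, with limma for Resp18, and with no filter on low counts for Resp18.

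Of 20 peptide hormone genes, 9 were detected widely enough to be tested and 2 rose, Ghrl and Gal. Ghrl, the hormone of epsilon cells, was at 0.732, 0.446 and 0.25 CPM in GFP only and 201, 57.9 and 71.5 CPM in WT Ngn3 (log2 fold change 7.79 ± 1.49 SE, adjusted p = 0.0195). Gal, the neuropeptide galanin, was at 1.19, 0.365 and 0.05 against 52.1, 83.9 and 54.1 CPM (log2 fold change 6.78 ± 0.49 SE, adjusted p = 1.87e-05). Ins1, Ins2, Ppy and Pyy had no read in any of the 36 libraries, and 3 reads over the WT Ngn3 group would correspond to 0.0497 CPM. Gcg, the glucagon gene, had 44 reads in WT Ngn3 and none in GFP only, in too few libraries to be tested. Sst was at 0.154, 0.244 and 0.15 CPM in GFP only and 0.297, 0.223 and 16 CPM in WT Ngn3 (adjusted p = 0.271), and its level in replicate 3 came from technical repeats 2 and 3, at 81.5 and 108 CPM, which belong to the close pairs described above. Shifts of over 1.5 times in the fold change came from leaving out a replicate, giving log2 values of 7.01 for Ghrl without WT Ngn3 replicate 1, and 8.11 for Gal without GFP only replicate 1. The call was lost for Ghrl without any GFP only replicate.

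Regulated exocytosis had 12 of 23 tested members higher and none lower (median log2 fold change 1.18). Syt13, a synaptotagmin of endocrine precursors, was at 8.43, 9.74 and 7.9 CPM in GFP only and 149, 105 and 244 CPM in WT Ngn3 (log2 fold change 4.25 ± 0.27 SE, adjusted p = 1.65e-06). Snap25, a SNARE of secretory vesicles, was at 1.54, 2.11 and 1.65 against 12.1, 8.65 and 39.2 CPM (log2 fold change 3.49 ± 0.57 SE, adjusted p = 0.0029), and Rab3c, a vesicle GTPase, had 2 control reads and 15.3, 7.53 and 31.6 CPM in WT Ngn3 (639.8-fold with a 95% counting interval of 177 to 5289, adjusted p = 3.05e-05). The SNARE clamp Cplx2 was at 4.31, 3.41 and 4.7 against 27, 27.6 and 86.3 CPM (log2 fold change 3.50 ± 0.49 SE, adjusted p = 0.00149). Vamp2, a vesicle SNARE with a wider use, was at 48.7, 41.9 and 41.8 against 61.1, 56.7 and 69 CPM (log2 fold change 0.50 ± 0.12 SE, adjusted p = 0.0171). For coupling a stimulus to secretion, 6 of 14 tested members rose. Abcc8, the sulfonylurea receptor of the KATP channel, was at 0.347, 0.122 and 0.25 against 6.95, 8.14 and 7.46 CPM (log2 fold change 4.93 ± 0.38 SE, adjusted p = 1.92e-06), and Kcnj11, its pore, had no control read and 0.466, 0.614 and 0.212 CPM in WT Ngn3 (at least 10.1-fold, adjusted p = 0.0102). Cacna1a, Cacna1c and Cacna1d, pore subunits of voltage-gated calcium channels, rose as well, whereas Slc2a2, the beta-cell glucose transporter, had a log2 fold change of -1.58 (adjusted p = 0.39). Scaling on spike-in totals kept 6 of the 12 exocytosis calls. The exocytosis genes had 7 higher on spike-in totals. The coupling genes had 3 higher with technical repeat 1 alone. With a replicate left out, the fold change shifted by over 1.5 times, to log2 values of 2.55 for Snap25 and 2.72 for Cplx2 without WT Ngn3 replicate 3. Without a replicate, the counted fold of Rab3c became 404 without GFP only replicate 1, at least 278 without GFP only replicate 2 and 422 without WT Ngn3 replicate 3, and that of Kcnj11 became at least 6.4 without GFP only replicate 1 and at least 6.59 without GFP only replicate 2. Significance was lost for Vamp2 without GFP only replicate 2 or 3 or WT Ngn3 replicate 3 and for Cacna1d without GFP only replicate 1 or 3 or WT Ngn3 replicate 3, and on spike-in totals for Vamp2. Calls were also lost with technical repeat 1 alone for Vamp2, Kcnj11, Cacna1a and Cacna1d.

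Single libraries showed that induced genes differ in how evenly they were expressed. For 98 named or listed genes that rose and reached a mean of 10 CPM in WT Ngn3, the coefficient of variation (SD over mean) over the 18 WT Ngn3 libraries ranged from 0.09 to 1.58. Genes that started under 1 CPM varied more (35 genes, median 0.798) than those already expressed at 1 CPM or more (63 genes, median 0.338), as a description over libraries that share replicates. The 35 genes entered only through their level in WT Ngn3, and the coefficient mixes differences between replicates with those between repeats. Insm1 was at or above 32.5 CPM in all 18 libraries, with a highest library of 311 CPM, and no library of the groups overlapped. Neurod1 ranged from 3.72 to 250.4 CPM (median 54.9), above every control library. Ghrl and Chgb had the highest coefficients of the 98 genes. Ghrl ranged from 0.194 to 548 CPM with a median of 7.98 and reached 10 CPM in 8 of 18 libraries, and Chgb ranged from 0.816 to 667 CPM with a median of 11.4 and reached 10 CPM in 9 of 18. In no GFP only library did either reach 10 CPM, and the highest were 1.16 and 1.84 CPM. At the even end was Prom1, an apical membrane protein of ducts, whose 18 WT Ngn3 libraries lay between 1385 and 1977 CPM, all above the highest control library at 851 CPM.

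**Figure D3:**
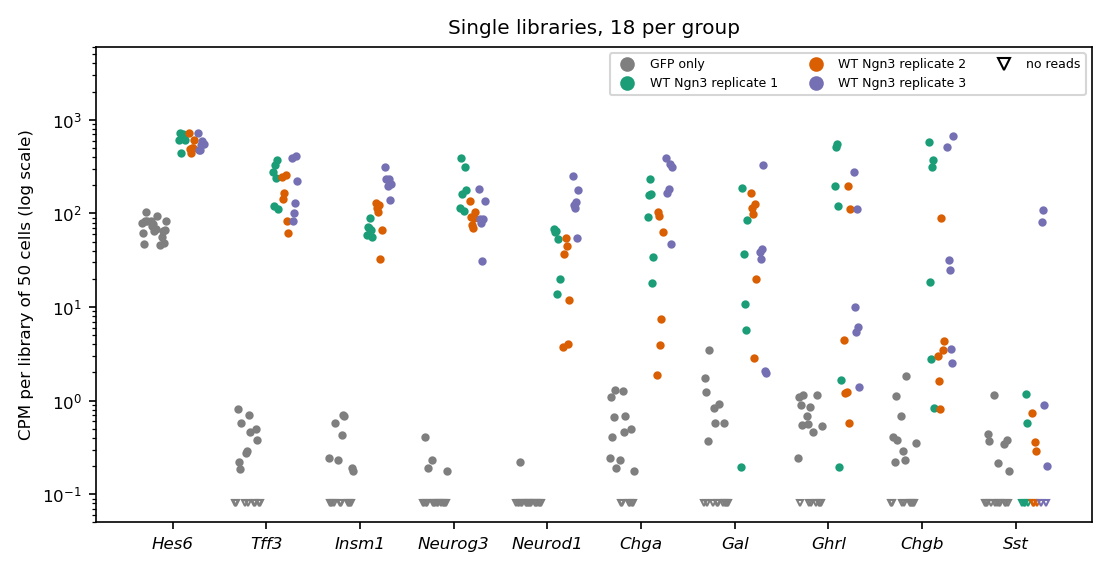
CPM of 10 genes in each of the 18 libraries of GFP only (grey) and of WT Ngn3 (coloured by replicate), on a log scale, each library holding 50 cells. Open triangles at 0.08 are libraries without reads. Hes6 forms a narrow band and Tff3 a wider one (coefficients of variation 0.173 and 0.547), both above the controls, while Ghrl and Chgb spread over more than 2 orders of magnitude and Sst is high in 2 libraries of replicate 3.

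Notch signalling passes between neighbouring cells through Delta and Jagged ligands, and Hes and Hey factors answer in the receiving cell. Of 12 tested ligand and ligand-modifier genes, 3 rose and 1 fell, and of 16 tested receptor and effector genes, 4 rose and none fell. Among ligands, Dll4 was at 0.847, 0.649 and 0.4 CPM in GFP only and 11.5, 8.2 and 30.9 CPM in WT Ngn3 (log2 fold change 4.70 ± 0.66 SE, adjusted p = 0.00111). Dll1, the ligand tied to Ngn3 in the embryo, had a log2 fold change of 0.56 that did not pass (adjusted p = 0.235), and Jag1, a ductal ligand, fell from 195, 170.5 and 219 CPM to 105, 104 and 102 CPM (log2 fold change -0.91 ± 0.12 SE, adjusted p = 0.000143). Of the fringe glycosyltransferases that tune the receptors, Mfng rose from 0.154, 0.487 and 0.4 to 4.2, 3.63 and 9.37 CPM (log2 fold change 4.04 ± 0.53 SE, adjusted p = 0.000186) and Lfng by less (log2 fold change 0.97 ± 0.27 SE, adjusted p = 0.0328), and Rfng did not pass (log2 fold change 0.26, adjusted p = 0.469). Notch1 was at 31.9, 31.7 and 34.2 against 69.5, 86.2 and 60.8 CPM (log2 fold change 1.15 ± 0.18 SE, adjusted p = 0.000573). Hes6 encodes a factor that counteracts Hes1. It rose from 80.7, 76.8 and 64.9 CPM to 638, 546 and 584 CPM (log2 fold change 2.99 ± 0.12 SE, adjusted p = 9.96e-09), and the lowest of 18 WT Ngn3 libraries was at 438 CPM against 103 CPM in the highest control library. Hes1 itself, the main Notch effector of pancreatic progenitors, had a log2 fold change of 0.09 (adjusted p = 0.844). Heyl had 3 control reads and 15.7, 10.5 and 2.54 CPM in WT Ngn3 (236-fold with a 95% counting interval of 80.5 to 1149.7, adjusted p = 0.00123), and Nrarp, a feedback target, rose (log2 fold change 1.24 ± 0.38 SE, adjusted p = 0.0478). The receptor and effector genes had 2 higher on spike-in totals and 2 with technical repeat 1 alone. The fold change moved by over 1.5 times when a replicate was left out, to log2 values of 3.93 for Dll4 without WT Ngn3 replicate 3. In counted reads the fold of Heyl became at least 149.5 without GFP only replicate 1, 154 without GFP only replicate 2 and 151 without WT Ngn3 replicate 1. The adjusted p exceeded 0.05 for Lfng without GFP only replicate 2 or 3 or WT Ngn3 replicate 1 and for Nrarp without any GFP only replicate or WT Ngn3 replicate 1 or 3, and on spike-in totals for Jag1, Lfng, Notch1 and Nrarp. Other losses of the call came with technical repeat 1 alone for Notch1 and Nrarp, with limma for Nrarp, without technical repeat 3 of replicates 2 and 3 for Nrarp, and with WT Ngn3 and GFP only fitted alone for Nrarp.

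Partners and inhibitors of bHLH factors moved in single members. Tcf4, an E protein, was at 35.3, 40.5 and 53.4 CPM in GFP only and 66, 84.8 and 87.5 CPM in WT Ngn3 (log2 fold change 0.88 ± 0.16 SE, adjusted p = 0.00197), whereas Tcf3 and Tcf12 did not pass. Id2, an inhibitor that sequesters E proteins, fell from 275, 370.2 and 376 to 192, 217 and 204 CPM (log2 fold change -0.73 ± 0.14 SE, adjusted p = 0.00328), and Id4 rose from 0.116, 0.365 and 0.25 to 5.34, 4.13 and 1.96 CPM (log2 fold change 3.95 ± 0.51 SE, adjusted p = 0.000154). Id1 and Id3 had log2 fold changes of 0.04 and 1.12 (adjusted p = 0.95 and 0.498). Calls did not hold on spike-in totals for Tcf4 and Id2. Further calls ended with technical repeat 1 alone for Tcf4, Id2 and Id4.

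Cell cycle genes fell. Of 29 tested genes of G2 and M phase, 24 were lower and none higher (median log2 fold change -1.32), and of 27 genes of S phase, 17 were lower and none higher (median -1.09). The summed level of the G2 and M genes was 1105, 1234 and 1249 CPM in the GFP only replicates and 669, 358 and 511 CPM in those of WT Ngn3, and that of the S phase genes was 928, 1418 and 1089 CPM against 812, 616 and 550.4 CPM. Mki67, the proliferation marker Ki-67, was at 57.3, 75.4 and 89.5 CPM in GFP only and 34.1, 22.5 and 35.1 CPM in WT Ngn3 (log2 fold change -1.28 ± 0.21 SE, adjusted p = 0.00112). Cdk1, the mitotic kinase, was at 94, 104 and 81.4 against 45.9, 31.3 and 47.5 CPM (log2 fold change -1.16 ± 0.24 SE, adjusted p = 0.00764), and its partner Ccnb1 at 18.9, 15.2 and 20.3 against 5.6, 3.29 and 8.15 CPM (log2 fold change -1.67 ± 0.33 SE, adjusted p = 0.00402). Replicates of the groups did not overlap for any of these 3 genes, as for 99% of all genes called lower and 26.2% of all genes tested. Among replication genes, Rrm2, a subunit of ribonucleotide reductase, was at 38.5, 64.3 and 47.5 against 23.8, 11.4 and 12.1 CPM (log2 fold change -1.66 ± 0.29 SE, adjusted p = 0.0023), and Pole, the leading-strand polymerase, at 19, 25.6 and 27.7 against 7.93, 7.86 and 6.56 CPM (log2 fold change -1.69 ± 0.27 SE, adjusted p = 0.000706). Members of the Mcm helicase were uneven, with Mcm3 and Mcm4 lower and Mcm7 at -0.13 (adjusted p = 0.624). Among the called genes of both lists, log2 fold changes lay between -1.69 (Pole) and -0.53 (Slbp). The number of lower G2 and M genes was 14 without GFP only replicate 2 and 15 without WT Ngn3 replicate 2, that of lower S phase genes was 10 without GFP only replicate 2, and on spike-in totals 13 and 5 were called. With technical repeat 1 alone the counts were 5 and 6. The G2 and M genes had a median log2 fold change of -0.69 with technical repeat 1 alone. The call was lost for Mcm4 without GFP only replicate 2 or WT Ngn3 replicate 2 or 3 and for Slbp without GFP only replicate 2 or 3 or WT Ngn3 replicate 2 or 3, and on spike-in totals for Mcm3, Mcm4 and Slbp. The adjusted p also passed 0.05 with technical repeat 1 alone for Cdk1, Ccnb1, Pole, Mcm4 and Slbp, with limma for Slbp, and with WT Ngn3 and GFP only fitted alone for Slbp.

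**Figure D4:**
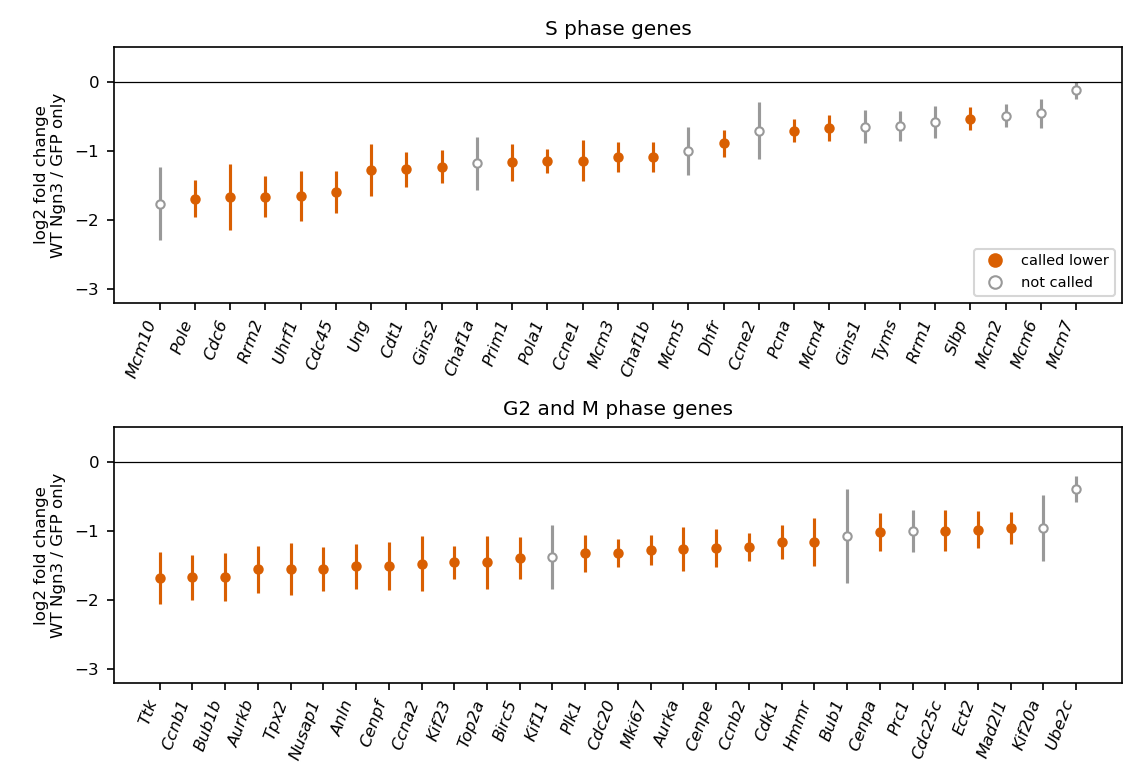
Log2 fold change of WT Ngn3 over GFP only for the 27 S phase genes (top) and 29 G2 and M phase genes (bottom), ordered by size, with bars of 1 SE from 3 replicates per group. Filled orange points are genes called lower, open grey points are not called, and all 56 estimates lie below 0.

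Inhibitors of the cell cycle did not rise as a group. Of 15 tested Cdk inhibitor and antiproliferative genes, Gadd45g, a stress- and differentiation-linked gene, rose from 33.7, 34.2 and 31.3 CPM to 63.2, 47.4 and 57.1 CPM (log2 fold change 0.76 ± 0.14 SE, adjusted p = 0.00224) and no other passed, 1 of 15 against 6.56% of all genes. Over the alternatives, 0 to 2 of the 15 were higher and 0 to 3 lower. Cdkn1a, which encodes p21, had a log2 fold change of 0.46 (adjusted p = 0.0983), Cdkn1b, which encodes p27, one of -0.51 (adjusted p = 0.212) and Cdkn1c, p57, one of 0.36 (adjusted p = 0.891). Cdkn1a was called higher in 2 of 17 alternatives and Cdkn1b lower in 1. Targets of p53 likewise had 1 of 15 tested members higher, the death receptor Eda2r (log2 fold change 1.31 ± 0.14 SE, adjusted p = 3.74e-05), with Mdm2 at 0.18 (adjusted p = 0.467). For the p53 targets the alternatives gave 0 to 4 higher and 0 to 2 lower. Immediate early and heat shock genes, which respond to growth factors and to handling, had 8 of 18 members lower and none higher (median log2 fold change -0.81). Fos was at 3062, 2881 and 3231 CPM in GFP only and 2094, 1665 and 2254 CPM in WT Ngn3 (log2 fold change -0.61 ± 0.13 SE, adjusted p = 0.00613), and Junb, Dusp1, Nr4a1, Zfp36, Ier2, Egr2 and Hspa1a were lower too, whereas Jun (-0.26) and Egr1 (-0.31) did not pass. The immediate early and heat shock genes had 2 lower on spike-in totals, the fewest of the alternatives, and 15 in the alternative with the most. Significance was lost for Ier2 without WT Ngn3 replicate 2 and for Egr2 without any GFP only replicate or WT Ngn3 replicate 1 or 2, and on spike-in totals for Gadd45g, Eda2r, Fos, Junb, Dusp1, Nr4a1, Zfp36, Ier2 and Egr2. Calls were also lost with technical repeat 1 alone for Fos, Ier2 and Hspa1a.

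Several ductal genes fell. All samples expressed the defining duct markers, and of 9 such markers, 6 were lower and none higher in WT Ngn3. Krt19, a keratin of ducts, was at 693, 620.5 and 720.0 CPM in GFP only and 166, 259.8 and 281 CPM in WT Ngn3 (log2 fold change -1.53 ± 0.20 SE, adjusted p = 0.000195). Muc1, an apical mucin, was at 849.7, 627 and 586 against 231, 215 and 219 CPM (log2 fold change -1.63 ± 0.15 SE, adjusted p = 7.98e-06), and Car2, a carbonic anhydrase of bicarbonate secretion, at 168, 276 and 241 against 60.4, 49.1 and 57.3 CPM (log2 fold change -2.04 ± 0.36 SE, adjusted p = 0.00516). Spp1, osteopontin, was at 9214, 10406 and 8431 against 5131, 4586 and 4952 CPM (log2 fold change -0.94 ± 0.11 SE, adjusted p = 9.11e-05). The markers Krt7 and Cftr, the chloride channel of ducts, did not pass, with log2 fold changes of -0.03 and -0.01 (adjusted p = 0.924 and 0.995). Sox9, the central factor of ducts and progenitors, was at 440.1, 324 and 416 CPM in GFP only and 395, 426 and 399 CPM in WT Ngn3, with overlapping replicates (log2 fold change 0.05 ± 0.13 SE, adjusted p = 0.894). Other factors of that list went both ways, 6 lower and 3 higher of 21 tested. Hhex, a duct homeobox gene, fell from 239, 277 and 306 to 80.2, 94.4 and 125 CPM (log2 fold change -1.46 ± 0.21 SE, adjusted p = 0.000643), and the epithelial factors Ehf, Elf3 and Klf5 had log2 fold changes of -0.80, -0.94 and -0.92. Foxa3, a forkhead factor, rose from 10.6, 12.9 and 14.7 to 31.8, 31.9 and 59.6 CPM (log2 fold change 1.69 ± 0.25 SE, adjusted p = 0.000598), and Prox1 and Tead2 rose by less. The ductal and progenitor factors had 1 higher on spike-in totals, 5 with no filter on low counts, 1 with technical repeat 1 alone and 1 without WT Ngn3 replicate 3, and 3 lower on spike-in totals. The adjusted p exceeded 0.05 for Prox1 without GFP only replicate 1 or 2 or WT Ngn3 replicate 3 and for Tead2 without GFP only replicate 2 or 3 or WT Ngn3 replicate 2 or 3, and on spike-in totals for Spp1, Ehf, Elf3, Klf5, Prox1 and Tead2. Other losses of the call came with technical repeat 1 alone for Prox1 and Tead2.

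Among 24 tested ductal epithelial genes, 11 fell and 4 rose. Lcn2, a secreted lipocalin of stressed epithelia, fell from 6582, 8379 and 5988 CPM to 946, 1888 and 1913 CPM (log2 fold change -2.14 ± 0.38 SE, adjusted p = 0.00673), and Anxa2, a membrane-binding annexin, from 1331, 1426 and 1328 to 569, 551 and 574 CPM (log2 fold change -1.27 ± 0.15 SE, adjusted p = 6.49e-05). Clu, clusterin, fell by less, from 31499, 28303 and 24660.0 to 18476, 18753 and 16095 CPM (log2 fold change -0.66 ± 0.12 SE, adjusted p = 0.00192). Against this direction, Prom1 rose from 478, 678 and 595 to 1733, 1686 and 1649.5 CPM (log2 fold change 1.53 ± 0.14 SE, adjusted p = 7.08e-06), Tspan8, a tetraspanin, from 147, 169 and 162 to 305, 217 and 252 CPM (log2 fold change 0.70 ± 0.14 SE, adjusted p = 0.0038), and a second trefoil gene, Tff2, from 0.655, 0.974 and 0.4 to 18.8, 5.63 and 5.45 CPM (log2 fold change 3.86 ± 0.59 SE, adjusted p = 0.000899). On spike-in totals 5 of the 11 lower calls were kept. The ductal epithelial genes had 6 lower on spike-in totals. Leaving out a replicate moved the fold change by over 1.5 times, to log2 values of 2.99 for Tff2 without WT Ngn3 replicate 1. Calls did not hold on spike-in totals for Clu and Tspan8. Further calls ended with technical repeat 1 alone for Clu and Tspan8.

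Chil1, Il33, Gjb1, Rgs4, Lgals3 and Ctse were among the 15 genes with the largest decreases of those at 10 CPM or more in GFP only. Chil1, a chitinase-like secreted protein, was at 16.5, 39.2 and 17.4 against 1.19, 3.79 and 1.8 CPM (log2 fold change -3.45 ± 0.64 SE, adjusted p = 0.00509), and Il33, an alarmin cytokine, at 17.3, 23.3 and 27.2 against 2.08, 4.69 and 4.76 CPM (log2 fold change -2.56 ± 0.36 SE, adjusted p = 0.000266). Gjb1, a gap junction protein, was at 9.2, 26.8 and 16 against 1.74, 1.17 and 3.49 CPM (log2 fold change -3.02 ± 0.47 SE, adjusted p = 0.000829). Rgs4, a brake on G protein signalling, fell from 29.9, 23.7 and 16.2 to 1.78, 2.84 and 4.34 CPM (log2 fold change -2.97 ± 0.41 SE, adjusted p = 0.00031). Lgals3, a galectin, was at 78.1, 89.2 and 121 against 11.4, 12 and 29.6 CPM (log2 fold change -2.45 ± 0.37 SE, adjusted p = 0.00164), and Ctse, the aspartic protease cathepsin E, at 139, 113 and 114 against 23.1, 20.8 and 26.2 CPM (log2 fold change -2.38 ± 0.19 SE, adjusted p = 3.09e-06). Others of the 15 were Tmem45a, Tpm2, Ptgs1, Gstt1, Aspa, Itga1, ccdc198 and Dram1, with log2 fold changes between -2.79 and -2.38. In all 15 genes the 3 replicates of one group lay apart from those of the other, which was part of how they were chosen. Shifts of over 1.5 times in the fold change came from leaving out a replicate, giving log2 values of -4.04 for Chil1 without WT Ngn3 replicate 2, and -3.04 for Lgals3 without WT Ngn3 replicate 3. The call was lost for Tmem45a without GFP only replicate 2 or 3 or WT Ngn3 replicate 2, for Ptgs1 without WT Ngn3 replicate 1 or 3 and for Aspa without any GFP only replicate or WT Ngn3 replicate 1 or 2. The adjusted p also passed 0.05 with technical repeat 1 alone for Rgs4 and Tmem45a, and with no filter on low counts for Tmem45a, Ptgs1 and Aspa.

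Adhesion and polarity genes changed without a common direction. Of 24 tested members, 8 were higher and 5 lower, with a median log2 fold change of -0.01 that turned positive without GFP only replicate 3 (0.04), without WT Ngn3 replicate 1 (0.06) and with technical repeat 1 alone (0.15). Cdh2, N-cadherin, was at 22.8, 18.1 and 19.2 CPM in GFP only and 214, 161 and 127 CPM in WT Ngn3 (log2 fold change 3.06 ± 0.19 SE, adjusted p = 2.23e-07), while Cdh1, E-cadherin, had a log2 fold change of 0.58 (adjusted p = 0.0789). Snai2, Zeb1 and Zeb2, repressors linked to epithelial-mesenchymal transition, all rose. Snai2 was at 1.46, 2.27 and 2.9 against 12, 17.9 and 17.4 CPM (log2 fold change 2.84 ± 0.33 SE, adjusted p = 6.56e-05), and Zeb1 at 9.55, 9.78 and 12.5 against 46.8, 36.3 and 36.8 CPM (log2 fold change 1.92 ± 0.17 SE, adjusted p = 6.66e-06). Vim, the filament protein vimentin, was at 7.28, 14 and 12.1 against 111, 66.9 and 49.5 CPM (log2 fold change 2.77 ± 0.33 SE, adjusted p = 0.000279), whereas Snai1 and Twist1 did not pass. The tight-junction genes Cldn3, Cldn4 and Cldn7 fell, Cldn4 from 2033, 1793 and 2017 to 1031, 1067 and 878 CPM (log2 fold change -0.97 ± 0.12 SE, adjusted p = 7.86e-05), together with the polarity gene Crb3 and the cadherin gene Cdh6 (log2 fold change -1.35 ± 0.15 SE, adjusted p = 3.37e-05). The polarity gene Pard3 (log2 fold change 1.24 ± 0.12 SE, adjusted p = 1.77e-05) and the desmosomal gene Dsp (log2 fold change 1.28 ± 0.18 SE, adjusted p = 0.000336) rose. The adhesion and polarity genes had 5 higher on spike-in totals, and 1 lower on spike-in totals and 2 with technical repeat 1 alone. Significance was lost on spike-in totals for Zeb2, Cldn3, Cldn4, Cldn7, Crb3, Pard3 and Dsp. Calls were also lost with technical repeat 1 alone for Zeb2, Cldn3, Cldn7 and Crb3.

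Of the genes already at 10 CPM or more in GFP only, the 10 with the largest increases were Rnase4, Gcnt3, Wnt9a, Tnc, Col18a1, Upp1, Cdh2, Htra1, Hes6 and Aif1l. Col18a1, a basement membrane collagen, was at 237, 159.8 and 221 CPM in GFP only and 2057, 1957 and 1402 CPM in WT Ngn3 (log2 fold change 3.13 ± 0.20 SE, adjusted p = 5.83e-07), and Slc19a1 overlaps it on the other strand. Gcnt3, an enzyme of mucin glycosylation, was at 24.1, 15.9 and 12.2 against 179, 121 and 200.3 CPM (log2 fold change 3.26 ± 0.27 SE, adjusted p = 1.61e-05), and Wnt9a, a Wnt ligand, at 17.5, 9.34 and 10.6 against 138, 133 and 76.1 CPM (log2 fold change 3.21 ± 0.28 SE, adjusted p = 1.77e-05). Htra1, a secreted serine protease, was at 15.9, 12 and 10.4 against 128, 99.7 and 81.1 CPM (log2 fold change 3.01 ± 0.22 SE, adjusted p = 1.39e-06). Tnc, the matrix glycoprotein tenascin C, was the exception in evenness, at 49, 43.1 and 47.5 CPM in GFP only and 466, 689 and 109 CPM in WT Ngn3, with replicate 3 far below the other 2 (log2 fold change 3.18 ± 0.68 SE, adjusted p = 0.0243). Rnase4 shares its locus with Ang, so its reads (log2 fold change 3.27 ± 0.34 SE, adjusted p = 0.000131) could belong to either. Upp1, uridine phosphorylase, and Aif1l, an actin-binding protein, had log2 fold changes of 3.09 and 2.97. The adjusted p exceeded 0.05 for Tnc without any GFP only replicate or WT Ngn3 replicate 1 or 2. Other losses of the call came with WT Ngn3 and GFP only fitted alone for Tnc.

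Genes of neurons rose from low levels. Of 27 tested genes of the neuronal cytoskeleton and of neuronal RNA-binding proteins, 13 were higher and 1, the tubulin gene Tubb2b, lower (median log2 fold change 2.54). Tubb3, a neuronal tubulin also seen in endocrine precursors, was at 1.77, 0.284 and 0.45 CPM in GFP only and 71, 51.4 and 97.6 CPM in WT Ngn3 (log2 fold change 6.39 ± 0.49 SE, adjusted p = 2.64e-05). Dcx, doublecortin, had no read in 18 control libraries and 5.51, 5.58 and 6.09 CPM in WT Ngn3, at least 134-fold above the floor (adjusted p = 1.32e-06). Dpysl3, a regulator of the growth-cone skeleton, was at 18.3, 16.1 and 24.9 against 128, 128 and 134 CPM (log2 fold change 2.72 ± 0.15 SE, adjusted p = 1.39e-07), and Kif5c, a kinesin of axons, at 6.47, 5.89 and 4.05 against 34.1, 34.4 and 27.3 CPM (log2 fold change 2.54 ± 0.19 SE, adjusted p = 1.41e-06). Nefm, a neurofilament gene, varied more between replicates, at 19.5, 6.08 and 44.2 CPM in WT Ngn3 (log2 fold change 6.58 ± 0.99 SE, adjusted p = 0.00388). Celf3, a splicing regulator, was at 0.539, 0.934 and 0.4 against 12.8, 7.92 and 24.9 CPM (log2 fold change 4.58 ± 0.43 SE, adjusted p = 1.49e-05), and Map2, Crmp1, Dpysl4, Dpysl5, Stmn3, Elavl3 and Nova2 were higher as well. Mapt, Stmn2, Kif1a and Srrm4 did not pass. The neuronal genes had a median log2 fold change of 1.55 with limma and 1.5 with technical repeat 1 alone. With a replicate left out, the fold change shifted by over 1.5 times, to log2 values of 7.64 for Tubb3 without GFP only replicate 1, and 5.73 for Nefm without WT Ngn3 replicate 3. The counted fold of Dcx became at least 84.9 without GFP only replicate 1 and at least 87.5 without GFP only replicate 2. Calls did not hold for Tubb2b without GFP only replicate 1 or 2 or WT Ngn3 replicate 2 or 3, for Map2 without GFP only replicate 2 or WT Ngn3 replicate 1, for Crmp1 without GFP only replicate 2 or 3 or any WT Ngn3 replicate, for Elavl3 without GFP only replicate 2 and for Nova2 without any GFP only replicate or WT Ngn3 replicate 1 or 3, and on spike-in totals for Tubb2b, Map2, Crmp1 and Nova2. Further calls ended with technical repeat 1 alone for Tubb2b, Map2, Stmn3 and Nova2, with WT Ngn3 and GFP only fitted alone for Crmp1 and Nova2, with limma for Nova2, and without technical repeat 3 of replicates 2 and 3 for Nova2.

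Axon guidance genes had 6 of 26 tested members higher and 2 lower. The receptor gene Robo1 was at 4.39, 4.95 and 4.4 CPM in GFP only and 36.5, 42.4 and 42 CPM in WT Ngn3 (log2 fold change 3.13 ± 0.15 SE, adjusted p = 3.35e-08), while Slit2, the ligand of Robo receptors, fell from 30.8, 31.3 and 39.7 to 14.3, 16.7 and 15.8 CPM (log2 fold change -1.12 ± 0.21 SE, adjusted p = 0.00258). Plxna2, a semaphorin receptor, was at 10.1, 17.2 and 19.1 against 79.1, 71.4 and 80.8 CPM (log2 fold change 2.32 ± 0.21 SE, adjusted p = 1.21e-05), and the semaphorin gene Sema3c fell from 328, 219.6 and 274 to 119.9, 144 and 149.8 CPM (log2 fold change -0.99 ± 0.16 SE, adjusted p = 0.000793). Unc5a, a netrin receptor, was at 0.847, 1.06 and 1.3 against 14.8, 6.08 and 16.1 CPM (log2 fold change 3.54 ± 0.45 SE, adjusted p = 0.000183), and Sema3a, Sema3e and Plxna3 were higher with adjusted p of 0.0364, 0.0413 and 0.0262. The guidance genes had 3 higher on spike-in totals and 3 without GFP only replicate 2. The call was lost for Sema3a without any GFP only replicate or WT Ngn3 replicate 1 or 2, for Sema3e without GFP only replicate 2 or 3 or WT Ngn3 replicate 1 or 3 and for Plxna3 without any GFP only replicate or WT Ngn3 replicate 3, and on spike-in totals for Sema3c, Sema3a, Sema3e and Plxna3. The adjusted p also passed 0.05 with technical repeat 1 alone for Sema3a and Plxna3, with WT Ngn3 and GFP only fitted alone for Sema3a and Sema3e, and with no filter on low counts for Sema3e.

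Voltage-gated and potassium channel genes had 10 of 25 tested members higher and none lower (median log2 fold change 2.15, or 1.39 with near-silent members at their bound or counted ratio). Cacna2d1, an auxiliary calcium channel subunit, was at 7.12, 10.1 and 10.5 CPM in GFP only and 98.5, 87.5 and 263 CPM in WT Ngn3 (log2 fold change 4.02 ± 0.47 SE, adjusted p = 0.000765). Kcnb2, a delayed-rectifier channel, was at 0.0385, 0.162 and 0.2 against 19.8, 19.7 and 56.8 CPM (log2 fold change 7.90 ± 0.65 SE, adjusted p = 2.81e-05), and Kcnh6, an ether-a-go-go related channel, had 2 control reads and 10.5, 5.52 and 22.1 CPM in WT Ngn3 (447-fold with a 95% counting interval of 123 to 3697, adjusted p = 1.21e-05). Kcnk16, a two-pore channel of islets, had 1 control read and 8.14, 2.4 and 11.9 CPM in WT Ngn3 (536-fold with a 95% counting interval of 95.8 to 21230.0, adjusted p = 2.18e-05). Kcnc1, Kcnk3, Kcnh7, Kcnma1 and Kcnip3 were also higher. Sodium channel genes were not among them, with Scn9a at 0.31 and Scn8a at -0.59 (adjusted p = 0.935 and 0.361). The channel genes had a median log2 fold change of 1.07 with limma, 1.46 without technical repeat 3 of replicates 2 and 3, 2.99 without GFP only replicate 1, and of 1.53, 1.43 and 1.37 with WT Ngn3 replicate 1, 2 or 3 left out. The fold change moved by over 1.5 times when a replicate was left out, to log2 values of 3.34 for Cacna2d1 and 7.21 for Kcnb2 without WT Ngn3 replicate 3. By counted reads, the fold of Kcnh6 became 282 without GFP only replicate 1 and 295 without WT Ngn3 replicate 3, and that of Kcnk16 became 339 without GFP only replicate 1, 349 without GFP only replicate 2 and at least 128 without GFP only replicate 3. Significance was lost for Kcnh7 without GFP only replicate 2. Calls were also lost with technical repeat 1 alone for Kcnk3, and with no filter on low counts for Kcnh7.

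R-spondin, present in the medium, acts through Lgr receptors and the ligases Rnf43 and Znrf3, which are also Wnt targets. Of 14 tested Wnt targets, 3 were lower and 1, Nkd1, higher. Rnf43 fell from 51.4, 76.8 and 87.7 CPM to 25.1, 34.5 and 37.4 CPM (log2 fold change -1.16 ± 0.22 SE, adjusted p = 0.00328), and Znrf3 (log2 fold change -0.56 ± 0.15 SE, adjusted p = 0.0263) and Sp5 (log2 fold change -0.67 ± 0.19 SE, adjusted p = 0.0302) by less, while Axin2, a general Wnt reporter, had a log2 fold change of 0.09 and Lgr5 one of -0.79 (adjusted p = 0.95 and 0.0508). Of 18 YAP and TEAD pathway genes, 4 were lower and 3 higher. Of the target genes, Ccn2 was at 572, 698 and 800.2 against 282, 411 and 278 CPM (log2 fold change -1.09 ± 0.25 SE, adjusted p = 0.0139) and Ankrd1 at 584, 761 and 691 against 255, 389 and 368 CPM (log2 fold change -1.01 ± 0.24 SE, adjusted p = 0.0169), both lower, while Ccn1 did not pass (log2 fold change -0.48, adjusted p = 0.221). The coagulation gene F3 fell from 108, 97.7 and 147 to 35.7, 37.4 and 42.4 CPM (log2 fold change -1.61 ± 0.18 SE, adjusted p = 4.45e-05), and Ajuba fell too, whereas Amotl1, a scaffold that binds YAP, rose from 194, 174 and 204 to 372, 410.0 and 431 CPM (log2 fold change 1.08 ± 0.11 SE, adjusted p = 1.75e-05) with Tead1 and Tead2. Yap1 itself had a log2 fold change of -0.34 (adjusted p = 0.128). The Wnt targets had 1 lower on spike-in totals, 5 with the DESeq2 Wald test, 5 with WT Ngn3 and GFP only fitted alone and 1 without GFP only replicate 3. Over all alternatives, 1 to 6 Wnt targets were lower and 0 to 1 higher. The YAP and TEAD genes had 0 higher on spike-in totals, 1 with technical repeat 1 alone, 1 without GFP only replicate 2, 1 without WT Ngn3 replicate 2 and 1 without WT Ngn3 replicate 3, and 1 lower on spike-in totals and 2 without GFP only replicate 3. Over all alternatives, 1 to 8 YAP and TEAD genes were lower. The adjusted p exceeded 0.05 for Znrf3 without GFP only replicate 3 or WT Ngn3 replicate 1 or 2, for Nkd1 without GFP only replicate 3, for Sp5 without GFP only replicate 2 or 3 or any WT Ngn3 replicate, for Ccn2 without GFP only replicate 3 or WT Ngn3 replicate 1 or 3, for Ankrd1 without GFP only replicate 2 or 3 or WT Ngn3 replicate 1, for Tead1 without GFP only replicate 1 or 2 or WT Ngn3 replicate 2 or 3 and for Tead2 without GFP only replicate 2 or 3 or WT Ngn3 replicate 2 or 3, and on spike-in totals for Znrf3, Nkd1, Sp5, Ccn2, Ankrd1, Ajuba, Amotl1, Tead1 and Tead2. Other losses of the call came with technical repeat 1 alone for Znrf3, Sp5, Tead1 and Tead2, with no filter on low counts for Nkd1, Ccn2 and Ankrd1, and with WT Ngn3 and GFP only fitted alone for Tead1.

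Stress and interferon genes moved in single members. Rsad2, the antiviral enzyme viperin, was at 0.963, 0.284 and 0.951 CPM in GFP only and 66.6, 38.5 and 72.8 CPM in WT Ngn3 (log2 fold change 6.34 ± 0.41 SE, adjusted p = 1.98e-06), and every WT Ngn3 library, at 22.4 CPM or more, lay above every control library, at 3.45 CPM or less. Ifih1, an RNA sensor, was at 16.2, 15.1 and 17.5 against 54.7, 44 and 40 CPM (log2 fold change 1.51 ± 0.19 SE, adjusted p = 0.000118). Apart from Ifit3 (log2 fold change 2.87 ± 0.83 SE, adjusted p = 0.0387), the other 16 tested interferon response genes did not pass, among them Isg15 with 0.17 and Irf7 with 0.05 (adjusted p = 0.941 and 0.969). Of 15 genes of the unfolded protein response, 3 were higher and 1 lower. Sel1l, a part of the degradation complex of the endoplasmic reticulum, was at 104, 92.5 and 109 against 209, 217 and 466 CPM, highest in replicate 3 (log2 fold change 1.54 ± 0.31 SE, adjusted p = 0.00947), Chac1 (log2 fold change 1.23 ± 0.25 SE, adjusted p = 0.00547) and Herpud1 (log2 fold change 0.62 ± 0.16 SE, adjusted p = 0.0207) rose, and Xbp1, a factor of secretory cells, fell (log2 fold change -0.54 ± 0.14 SE, adjusted p = 0.0216). Hspa5, the chaperone that reports this response, had a log2 fold change of 0.00 (adjusted p = 0.991). The unfolded protein response genes had 1 higher on spike-in totals, 1 with technical repeat 1 alone and 1 without GFP only replicate 2. Leaving out a replicate moved the fold change by over 1.5 times, to log2 values of 4.56 for Ifit3 without GFP only replicate 2. Calls did not hold for Ifit3 without GFP only replicate 1 or 3 or WT Ngn3 replicate 1 or 3, for Sel1l without GFP only replicate 2, for Herpud1 without GFP only replicate 1 or 2 or WT Ngn3 replicate 3 and for Xbp1 without GFP only replicate 2 or WT Ngn3 replicate 2 or 3, and on spike-in totals for Chac1, Herpud1 and Xbp1. Further calls ended with technical repeat 1 alone for Ifit3, Chac1, Herpud1 and Xbp1, with WT Ngn3 and GFP only fitted alone for Ifit3, and with no filter on low counts for Sel1l.

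**Figure D5:**
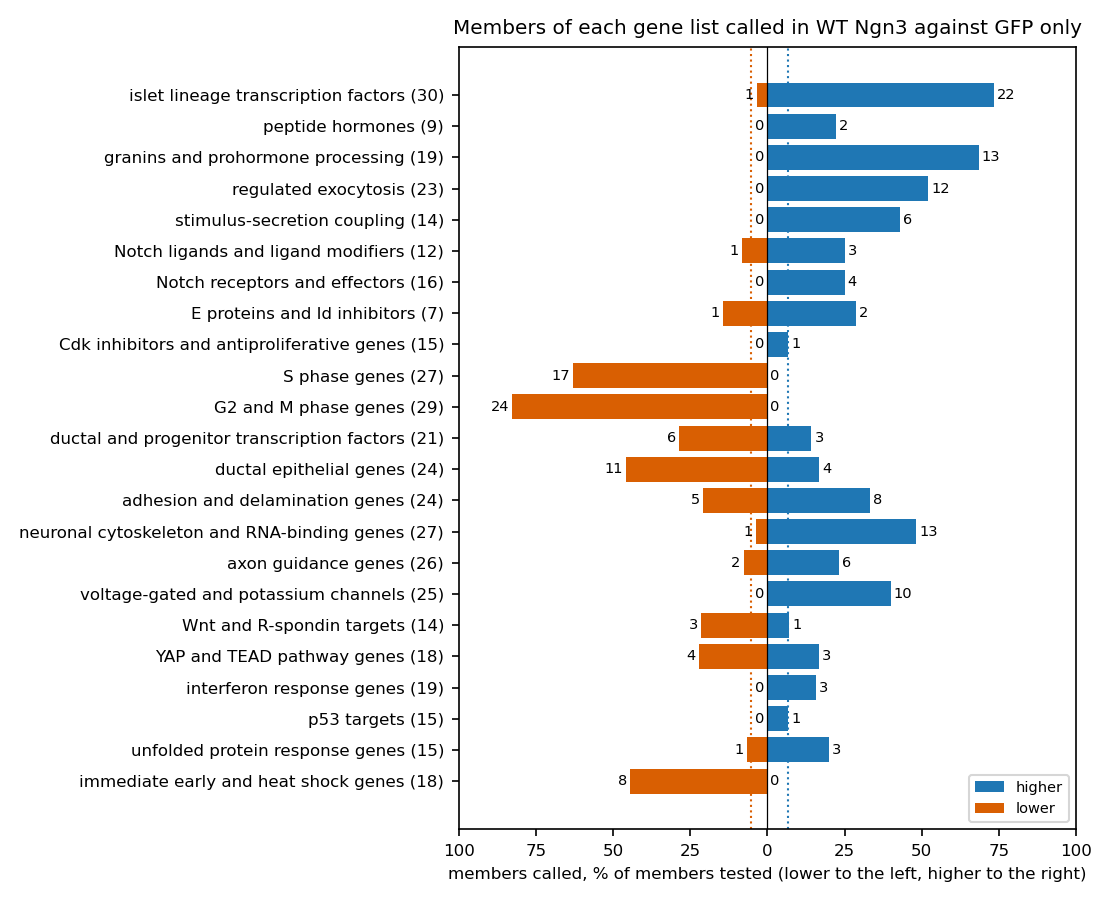
Share of tested members of each of the 23 gene lists called higher (blue, to the right) or lower (orange, to the left) in WT Ngn3, in % of members tested, with the number of members called beside each bar and the number tested in parentheses. Dotted lines mark the shares over all genes tested, 6.56% higher and 5.23% lower. The lists were chosen with earlier results of these data known, so the bars are descriptions. Islet transcription factors and granin genes have the longest bars to the right, and the G2 and M phase genes the longest to the left.

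Markers of other cell types were low in both groups. Of 11 acinar markers 5 were tested and none was called, their summed level lay between 2.00 and 6.45 CPM in GFP only and between 1.95 and 3.22 CPM in WT Ngn3, and Cpa1, Cela3b, Pnlip, Amy2b and Ptf1a were at 0 in both. Fibroblast and stellate markers (7 of 9 tested, none called) summed to 3.43 to 4.59 and 3.44 to 4.85 CPM with Col3a1 and Lum at 0, endothelial markers (6 of 7 tested, none called) to 1.35 to 2.04 and 2.49 to 6.61 CPM, and glial markers (4 of 5 tested, none called) to 2.39 to 4.80 and 4.76 to 5.75 CPM. Leukocyte markers (4 of 7 tested) summed to 10.6 to 13.5 and 5.58 to 9.47 CPM, and 1, Csf1r, was lower (log2 fold change -2.52 ± 0.53 SE, adjusted p = 0.00584). Cd3e was at 0 in both groups. The adjusted p also passed 0.05 with technical repeat 1 alone for Csf1r.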

How the data were processed

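Pools of 50 GFP-positive organoid cells were profiled by Smart-seq2 with Nextera XT, which does not mark strand. Per the labels, the authors aligned reads to mm10 with GSNAP 2015-09-29 and counted them per gene with HTSeq 0.5.3p3, and the deposited table holds raw counts for 46078 genes, 92 spike-ins and 5 summary lines. Summary lines (15.3% of reads without a feature, 7.68% ambiguous, 22.7% not aligned) and spike-ins were left out of library sizes. Names and coordinates came from GENCODE M21 (GRCm38), which gave 45143 of the gene identifiers a symbol.

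The 6 technical repeats of each replicate were summed. Genes detected in at least 5 of the 54 libraries of day 2 were fitted with edgeR 4.0.16 (R 4.3.3; TMM, robust quasi-likelihood test) over GFP only, WT Ngn3 and 6S-A Ngn3, which share 1 estimate of the spread, and called at an adjusted p under 0.05. The test was first run on simulated data, where it missed many of the small changes and made more false calls than its threshold allows. For genes with no reads in GFP only the fold is a bound from 3 reads over that group, and for 1 to 3 reads the ratio of summed counts with an exact 95% interval. Depth per replicate limits precision at low counts.

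Named were Neurog3, members of 23 lists (478 entries, 1 not matched), cell type markers, and genes of at least 10 CPM with non-overlapping replicates and the largest folds, 15 higher, 15 lower and 10 higher from at least 10 CPM in GFP only. The members and lists were chosen with earlier results of these data known. Alternatives used DESeq2 1.42.0, limma 3.58.1, scran 1.30.0, spike-in scaling, other filters, the first repeat alone, a replicate block and omission of single replicates. Other time points and the phosphomutant comparison were not analysed here. Some members are not reported here.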

Additional observations from a re-analysis of the deposited data

How the results depend on the processing

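The main test called 2810 genes, 1563 higher and 1247 lower. Counts stayed within 1.5 times of these with scran size factors (2820), DESeq2 size factors (2808), the DESeq2 Wald test (3582), limma (2885), filterByExpr (2946), no filter (3206), WT Ngn3 and GFP only alone (2626) and without technical repeat 3 of replicates 2 and 3 (2847). Spike-in totals as size factors gave 1219 (763 higher and 456 lower), and technical repeat 1 alone 1216 (733 and 483). Leaving out each replicate in turn gave 1966 to 2410 calls, 1111 to 1334 higher and 821 to 1076 lower, the fewest lower without WT Ngn3 replicate 2. Of 232 called genes that are listed or named, 105 were called under every alternative, and 87 were lost on spike-in totals, 74 with technical repeat 1 alone and 22 to 51 with a replicate left out. With technical repeat 1 alone the sign turned for Cdc20 (log2 fold change 0.074), Cenpa (0.18), Hmmr (0.27) and Napb (-0.11). Calls were gained as well. Among genes that did not pass in the main test, Lgr5 was called in 6 of 17 alternatives, Cdh1 and Tcf12 in 3, Cdkn1a and Snai1 in 2 and Sst in 1. The causes were not tested.

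Equal replicate numbers were not taken as pairs. Deviations of same-numbered samples correlated at 0.161, 0.0436 and 0.127 over 23844 genes and at 0.319, 0.0784 and 0.266 over the 14843 genes of at least 1 CPM. The value of replicate 2 was under 0.1 both times. Differently numbered samples lay between -0.293 and -0.00525, so each sample correlated best with its own number. The labels name no shared animal, batch or day. Spike-in share rose with the replicate number in both groups, at 0.0725, 0.107 and 0.145% in GFP only and 0.0854, 0.129 and 0.160% in WT Ngn3. The permutation tests of the technical measures did not use the numbers. A fit with a term for the replicate number as block called 4291 genes, 2257 higher and 2034 lower, and 8 of the 232 listed or named calls were lost (Cdc6, Cenpf, Chgb, Egr2, Ghrl, Hmmr, Nkd1 and Top2a), which left 1 higher peptide hormone gene in place of 2.

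The difference in spike-in share was 0.0167 percentage points, -0.0025 with technical repeat 1 alone and between -0.00101 and 0.0363 with a replicate left out. Without thinning, WT Ngn3 had 12.8 more detected genes (p = 1, exact two-sided permutation test). With 3 replicates of pooled cells, counting limits genes under about 1 CPM, where 3 reads over a group are 0.0425 CPM in GFP only and 0.0497 CPM in WT Ngn3.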
